A study of Homo sapiens with 9 samples.

Results

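Wnt inhibitors and Wnt feedback genes were followed across endoderm cells with a homozygous, a heterozygous or no deletion of CHD7, a gene for an ATP-dependent chromatin remodeller. The set was a list of 10 genes among the 26240 in the count table: the secreted inhibitors DKK1, DKK3, DKK4, FRZB, SFRP1 and NOTUM, the membrane inhibitor SHISA2, and the feedback genes AXIN2, SP5 and RNF43. All 10 had a row and passed the filter on low counts, although RNF43 did so with only 6 to 25 counts per library. RNA was sequenced from definitive endoderm derived from H9, an established human embryonic stem cell line that had been grown in mTeSR Plus medium on Matrigel. The genotypes came from CRISPR/Cas9 deletion of CHD7: homozygous mutant cells (CHD7-/-), heterozygous mutant cells (CHD7+/-) and wild-type control cells (CHD7+/+), with 3 libraries each. The labels do not give the number of clones, the cultures or the steps and agents of the endoderm differentiation, nor whether a Wnt agonist was among them. What the p-values measure is thus the scatter among libraries, which may be technical, and an effect of genotype and of a clone cannot be told apart.

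Wnt ligands bind a Frizzled receptor and the co-receptor LRP5 or LRP6 and thereby stabilise beta-catenin, which activates genes together with TCF and LEF factors. Inhibitors act at each step outside the cell: Dickkopf proteins such as DKK1 and DKK4 block the co-receptor, FRZB and SFRP1 carry a Frizzled-like domain that binds Wnt ligands, and NOTUM removes the lipid that ligands need. Several of these genes are themselves Wnt targets, which closes a negative feedback loop. Canonical Wnt activity helps induce mesendoderm, and Wnt antagonists then mark anterior endoderm.

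The homozygous libraries held 11854173 to 29849352 counts, the heterozygous libraries 23488722 to 30581464 and the wild-type libraries 24781297 to 37519729. CHD7 averaged 51.5 ± 7.41 CPM (counts scaled to a common library size) in homozygous, 123 ± 11.2 CPM in heterozygous and 193 ± 3.29 CPM in wild-type cells (SD, n = 3 each). Homozygous cells thus still had CHD7 counts, at 0.266 of the wild-type level. Endoderm markers were abundant in all 9 libraries, SOX17 lying between 562 and 732 CPM and CXCR4 between 537 and 683 CPM. The 12 definitive endoderm markers summed to 8054 to 9149 CPM in homozygous, 9865 to 10867 CPM in heterozygous and 11696 to 12532 CPM in wild-type cells, and 4 of them (FOXA2, MIXL1, CER1 and HHEX) fell in homozygous against wild-type cells, where 4.18% of all genes fell. Most of the difference in this sum was CER1, a secreted Nodal antagonist, with a mean of 4629.9 CPM in homozygous, 6124 CPM in heterozygous and 7245 CPM in wild-type cells. Of 6 neuroectoderm markers, 5 stayed under 1 CPM in every library. Homozygous replicate 3 stood apart in having the lowest POU5F1 (33.5 CPM) and SOX2 (0.848 CPM) of all libraries, so member results that rest on it are given with and without it. These are bulk samples, in which fewer cells of a type and less RNA per cell cannot be told apart.

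SP5 and DKK1 are well-known direct targets of beta-catenin and TCF, and their upstream sequences are shown because their extreme libraries were the same. Both were highest in heterozygous replicates 1 and 2 and lowest in homozygous replicate 3, as described further on. No correlation between the 2 genes was computed. The 250 bases before the RefSeq start (GRCh38.p14) were searched on both strands for CTTTGA, a core of the sites bound by TCF and LEF factors, and matches are in capitals (TCAAAG is the same core read on the other strand). The SP5 window is chr2:170715087-170715336 on the plus strand and the DKK1 window is chr10:52314031-52314280 on the plus strand, both printed 5′ to 3′.
SP5: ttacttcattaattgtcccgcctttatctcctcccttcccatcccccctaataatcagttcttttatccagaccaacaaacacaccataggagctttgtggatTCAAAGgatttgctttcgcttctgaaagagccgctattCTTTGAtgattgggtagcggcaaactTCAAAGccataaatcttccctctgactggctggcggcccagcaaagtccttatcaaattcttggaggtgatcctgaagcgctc
DKK1: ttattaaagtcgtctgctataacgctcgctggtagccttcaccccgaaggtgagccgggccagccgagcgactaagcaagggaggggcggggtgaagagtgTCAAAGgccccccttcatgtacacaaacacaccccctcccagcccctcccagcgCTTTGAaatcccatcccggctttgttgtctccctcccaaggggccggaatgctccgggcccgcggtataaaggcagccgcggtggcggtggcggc
The SP5 window held 3 matches, starting 147, 109 and 83 bases before the start, and the DKK1 window held 2, starting 149 and 95 bases before it. The windows read for FRZB, SHISA2 and RNF43 held 0. The other 5 members, DKK3, DKK4, SFRP1, NOTUM and AXIN2, were not searched. Of 35116 windows of this length, 11.2% held at least 1 match, 0.977% at least 2 and 0.0655% at least 3. A match is a description of the letters and not evidence that a factor binds there.

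In homozygous against wild-type cells DKK4 fell and FRZB rose, and the other 8 genes did not pass the test. These 2 of 10 compare with 7.68% of all 16837 genes tested, 3.5% up and 4.18% down (edgeR quasi-likelihood test, Benjamini-Hochberg adjusted p below 0.05 over all genes). The members were put together for the contrast of DKK4 with FRZB, with earlier results of these data known. Nothing is therefore read from the shares of members given here. In heterozygous against wild-type cells DKK4 fell and no other member was called, against 1.86% of all genes, 0.82% up and 1.04% down. Between the mutants FRZB was higher in homozygous than in heterozygous cells and no other member was called, against 2.21% of all genes, 0.986% up and 1.22% down. Before adjustment, p was below 0.05 for 4, 2 and 4 members in the 3 comparisons, against 23.2%, 13.5% and 18.3% of all genes. The libraries did not overlap for 4, 4 and 2 of the 10 members in these comparisons, against 28.9%, 22.2% and 19.5% of all genes. The median log2 fold change of the 10 members was -0.03, 0.04 and -0.05 in the same order, and that of all genes tested was 0.01, 0.00 and 0.01. The comparisons with wild type share the wild-type libraries, so their values are given side by side and not as independent results.

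**Figure D1:**
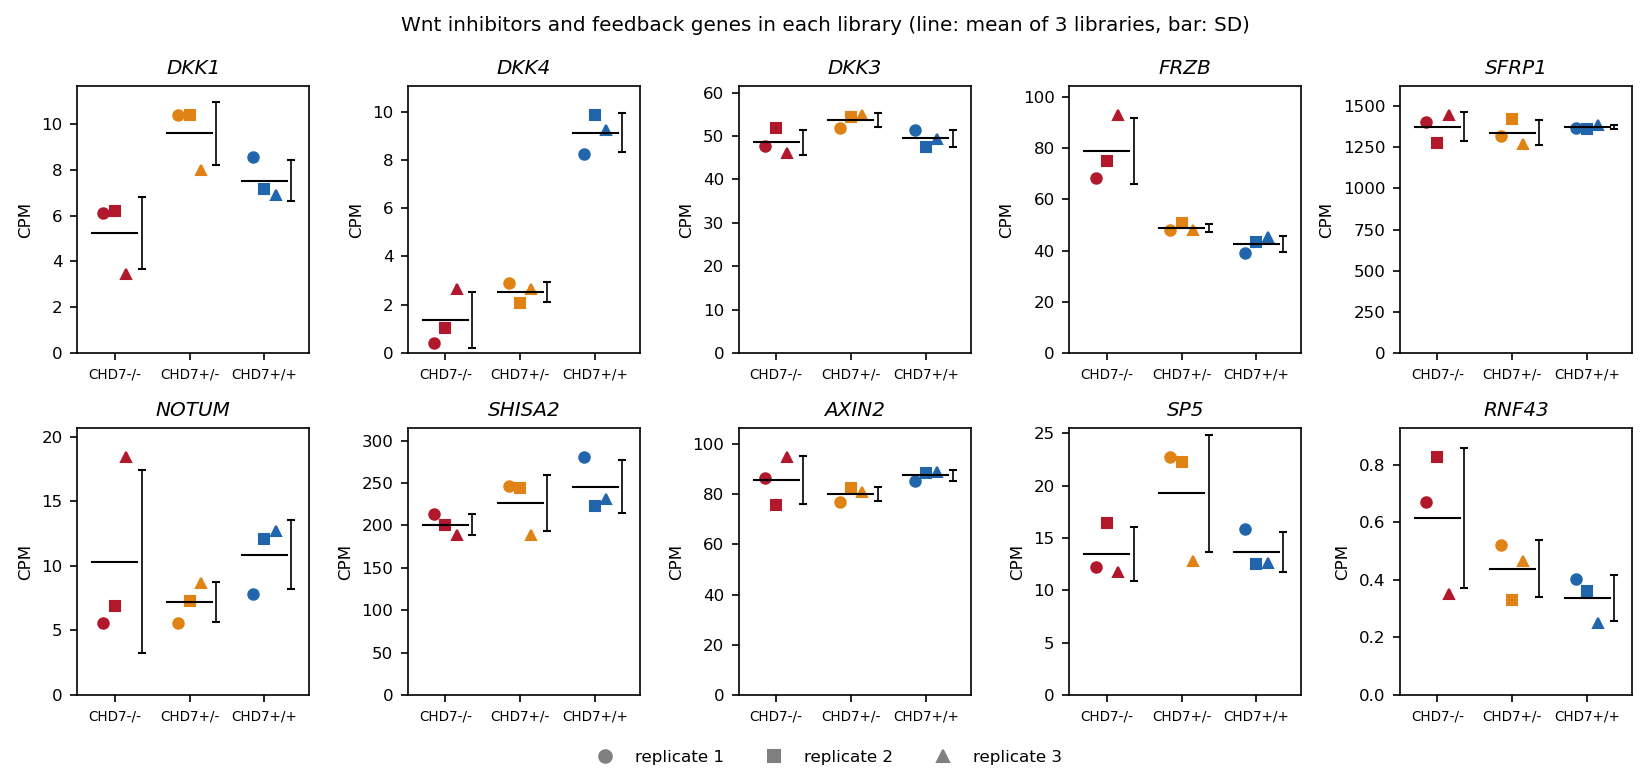
Level of each of the 10 genes in every library, in CPM on axes that start at 0, with homozygous (CHD7-/-), heterozygous (CHD7+/-) and wild-type (CHD7+/+) cells from left to right. Points are libraries, horizontal lines are means of 3 libraries and vertical bars are SDs. DKK4 lay at 0.418 to 2.64 CPM in homozygous and 8.26 to 9.87 CPM in wild-type cells, while FRZB lay at 68.5 to 93.2 CPM in homozygous and 39.2 to 45.3 CPM in wild-type cells.

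DKK4 is a secreted LRP antagonist encoded on chromosome 8 (42374068 to 42377232, minus strand, GRCh38). It stood at 0.418, 1.03 and 2.64 CPM in homozygous replicates 1, 2 and 3 (5, 31 and 53 counts), at 2.90, 2.08 and 2.63 CPM in heterozygous cells and at 8.26, 9.87 and 9.22 CPM in wild-type cells. Every mutant library was below every wild-type library, but homozygous replicate 3 lay inside the heterozygous range. Relative to wild type, DKK4 was 6.38-fold lower in homozygous cells (log2 fold change -2.67, SE 0.36, adjusted p = 0.00057) and 3.58-fold lower in heterozygous cells (-1.84, SE 0.33, adjusted p = 0.011). Homozygous and heterozygous cells were not told apart (-0.83, 95% interval -1.66 to 0.00, adjusted p = 0.273). Without homozygous replicate 3 the homozygous fall was -3.46, and the mutants then differed by -1.62 (adjusted p = 0.0158). Leaving out wild-type replicate 2 (adjusted p = 0.0637), wild-type replicate 3 (0.053) or heterozygous replicate 2 (0.0982) ended the heterozygous call, as did a test against a 1.5-fold change (0.0683).

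Of the mesoderm markers 4 were tested, and KDR, a VEGF receptor, was lower beside DKK4. The summed level over the 7 genes with a row was 23.1 to 40.6 CPM in homozygous, 36.8 to 46.7 CPM in heterozygous and 49.3 to 67.3 CPM in wild-type cells, most of it from KDR, the 1 called member of the list in homozygous against wild-type cells (-1.05, SE 0.19, adjusted p = 0.00419). The primitive streak factor TBXT was present at 0.585 to 1.79 CPM in homozygous, 1.82 to 3.52 CPM in heterozygous and 2.44 to 3.78 CPM in wild-type cells, and MESP1, MESP2 and MEOX1 were under 1 CPM in every library. PDGFRA averaged 3.71 CPM in homozygous, 4.74 CPM in heterozygous and 7.38 CPM in wild-type cells. Neither TBXT (-1.12, adjusted p = 0.0731) nor PDGFRA (-0.99, adjusted p = 0.0764) was called in homozygous against wild-type cells. Of all genes, 4.18% fell in that comparison. TBX6 differed in the other direction, at a mean of 1.47 CPM in homozygous, 1.33 CPM in heterozygous and 1.03 CPM in wild-type cells, and did not pass the test (homozygous over wild type 0.51, adjusted p = 0.298). The part of these markers in the DKK4 result was not tested.

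DKK1, the best-studied LRP antagonist and a regulator of head formation, had another order of genotypes than DKK4. It stood at 6.10, 6.19 and 3.44 CPM in homozygous replicates 1, 2 and 3, at 10.4, 10.4 and 8.01 CPM in heterozygous cells and at 8.56, 7.15 and 6.89 CPM in wild-type cells. The homozygous libraries lay below all others without overlap. The difference from wild type was not called (-0.53, 95% interval -0.99 to -0.07, adjusted p = 0.154, and -0.29 without homozygous replicate 3), and that from heterozygous cells just missed the threshold (-0.88, 95% interval -1.34 to -0.42, adjusted p = 0.0511). It passed in 4 of 18 alternative fits. These were DESeq2 (adjusted p = 0.00332), limma-voom (0.0496), no filter on low counts (0.0241) and the replicate number as a block (0.014). In the 9 fits that left out a library this difference ran from -1.06 to -0.65 and was called in 0. DKK3, a divergent Dickkopf that is not an established LRP antagonist, varied little, between 46.1 and 51.8 CPM in homozygous, 51.8 and 54.9 CPM in heterozygous and 47.5 and 51.5 CPM in wild-type cells (adjusted p from 0.365 to 0.88 over the 3 comparisons).

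FRZB, a secreted Frizzled-related protein also known as SFRP3, is encoded on chromosome 2 (182833275 to 182867162, minus strand). It stood at 68.5, 75.2 and 93.2 CPM in homozygous replicates 1, 2 and 3, at 48.0, 50.8 and 48.1 CPM in heterozygous cells and at 39.2, 43.3 and 45.3 CPM in wild-type cells. The 3 genotypes did not overlap and followed the number of mutant CHD7 copies, as did 2.25% of all genes in either direction. On the log2 scale FRZB in homozygous cells was higher by 0.89 than in wild type (SE 0.11, adjusted p = 0.000291) and by 0.69 than in heterozygous cells (SE 0.11, adjusted p = 0.00553). The heterozygous difference from wild type did not pass (0.20, 95% interval -0.04 to 0.44, adjusted p = 0.465). Without homozygous replicate 3 the rise over wild type was 0.76 and still called. Neither of the called differences passed a test against a 1.5-fold change (adjusted p = 0.0889 and 1).

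Some markers of other lineages were higher beside FRZB. The 6 trophoblast and amnion markers with a row summed to 23.5 to 31.3 CPM in homozygous, 13.4 to 13.9 CPM in heterozygous and 10.004 to 12.96 CPM in wild-type cells. Most of this sum was TFAP2C, a transcription factor of trophectoderm and germ cells, and KRT7, HAND1 and TFAP2A were under 1 CPM in every library. TFAP2C and GATA3, 2 of the 3 tested, rose in homozygous against wild-type cells, where 3.5% of all genes rose. The third, ISL1, was not called (0.79, adjusted p = 0.318). Of the 2 visceral endoderm markers tested, the nuclear receptor gene HNF4A rose too (0.77, SE 0.11, adjusted p = 0.000873), while the apolipoprotein gene APOA1 was not called (6.72 CPM in homozygous and 6.22 CPM in wild-type cells, 0.12, adjusted p = 0.72), and AFP and SOX7 were under 1 CPM everywhere. The part of these markers in the FRZB result was not tested.

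The ratio of FRZB to DKK4, each as CPM per kilobase of exon, describes the contrast for which the genes were put together, so nothing further is read from it. It was 46.4, 20.7 and 9.97 in homozygous replicates 1, 2 and 3, 4.68, 6.89 and 5.17 in heterozygous cells and 1.34, 1.24 and 1.39 in wild-type cells. In heterozygous cells the ratio differed from wild type mainly through DKK4, whose mean was 2.54 ± 0.415 CPM in heterozygous and 9.12 ± 0.810 CPM in wild-type cells, while FRZB averaged 48.9 ± 1.57 CPM in heterozygous and 42.6 ± 3.12 CPM in wild-type cells (SD, n = 3 each).

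The other inhibitors of ligands and receptors were not called in any comparison. SFRP1, another Frizzled-related protein, stood at 1405, 1277 and 1449 CPM in homozygous, 1319, 1422 and 1273 CPM in heterozygous and 1367, 1362 and 1387 CPM in wild-type replicates. Its log2 fold change in homozygous against wild-type cells had a 95% interval of -0.16 to 0.17, which lies below the 0.89 of FRZB. NOTUM, the Wnt deacylase, stood at 5.60, 6.89 and 18.4 CPM in homozygous, 5.60, 7.31 and 8.65 CPM in heterozygous and 7.78, 12.1 and 12.7 CPM in wild-type replicates. Homozygous replicate 3 was the highest of all 9 libraries while replicates 1 and 2 were below every wild-type library, so the genotype difference was -0.05 (95% interval -0.83 to 0.72, adjusted p = 0.947). Without homozygous replicate 3 it was -0.77 and again not called (adjusted p = 0.0556). SHISA2, a relative of the frog protein Shisa that holds Frizzled receptors in the endoplasmic reticulum, stood at 213, 201 and 188.4 CPM in homozygous, 246, 245 and 188.5 CPM in heterozygous and 281, 223 and 232 CPM in wild-type replicates. Its homozygous libraries lay below the wild-type libraries without overlap, and the difference was not called (-0.29, 95% interval -0.54 to -0.04, adjusted p = 0.155).

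The feedback genes were not called in any comparison. AXIN2, a scaffold of the beta-catenin destruction complex that is widely used as a readout of Wnt activity, stood at 86.3, 75.6 and 94.9 CPM in homozygous, 76.8, 82.6 and 80.7 CPM in heterozygous and 85.1, 88.3 and 88.9 CPM in wild-type replicates. Its log2 fold change was -0.03 (95% interval -0.23 to 0.16) in homozygous and -0.13 (95% interval -0.32 to 0.07) in heterozygous against wild-type cells. SP5, a zinc-finger factor induced by Wnt, stood at 12.2, 16.5 and 11.7 CPM in homozygous, 22.8, 22.3 and 12.8 CPM in heterozygous and 15.9, 12.5 and 12.6 CPM in wild-type replicates. Heterozygous replicates 1 and 2 were above every other library, and without heterozygous replicate 3 the heterozygous difference was called (0.72, adjusted p = 0.048, against 0.50 and 0.312 with it). RNF43, a ubiquitin ligase that removes Frizzled receptors, was near the detection limit at 0.349 to 0.828 CPM in homozygous, 0.329 to 0.521 CPM in heterozygous and 0.249 to 0.402 CPM in wild-type cells. Exons of RNF43 overlap those of SUPT4H1, a transcription elongation factor gene, on the same strand, and SUPT4H1 had just 135 counts over all 9 libraries. Reads that could belong to either gene may be missing from both rows, which was not tested. Exons of RNF43 also overlap those of the antisense gene TSPOAP1-AS1, which had 315 counts in all. A same-strand gene model there, AC004687.2, had 16. AXIN2 also shares exons with an overlapping gene model, AC004805.1, and DKK1 with the antisense gene PRKG1-AS1, which had 16 counts in all.

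**Figure D2:**
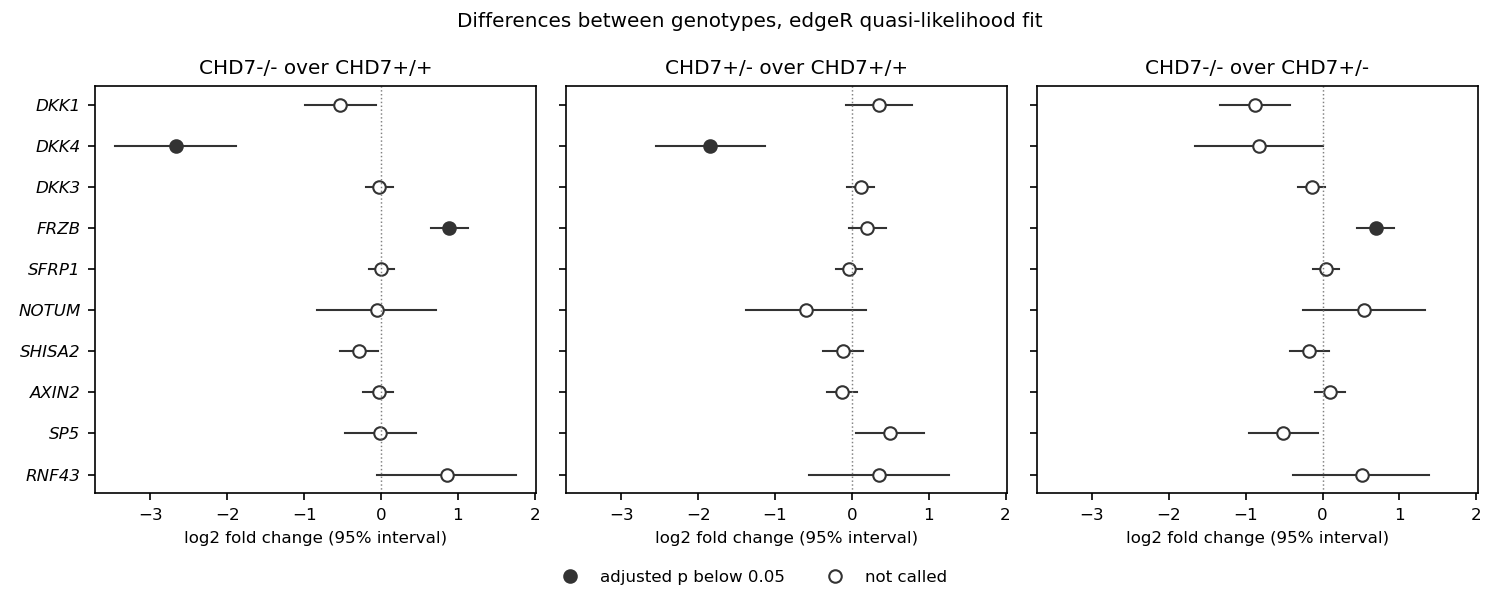
Log2 fold changes of the 10 genes with their 95% intervals in the 3 comparisons, from the fit over all 9 libraries. Filled points had an adjusted p below 0.05: DKK4 (-2.67) and FRZB (0.89) in homozygous against wild-type cells, DKK4 (-1.84) in heterozygous against wild-type cells and FRZB (0.69) between the mutants.

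Per length of exon, the order of the levels put SFRP1 first in every genotype, followed by SHISA2, and put RNF43 last. SFRP1 averaged 289 ± 18.8 CPM per kilobase in homozygous, 281 ± 16.1 in heterozygous and 288 ± 2.79 in wild-type cells (SD, n = 3 each). FRZB held rank 3 in homozygous cells, at 21.7 to 29.5 CPM per kilobase, and rank 4 in wild-type cells, at 12.4 to 14.3, where it lay below AXIN2. DKK4 held rank 9 in homozygous cells (1.52 ± 1.29 CPM per kilobase), rank 8 in heterozygous cells (2.84 ± 0.464) and rank 5 in wild-type cells (10.2 ± 0.907). Neighbours whose libraries overlapped were SP5 and NOTUM, NOTUM and DKK1, and DKK1 and DKK4 in homozygous cells. In heterozygous cells they were FRZB and AXIN2, DKK3 and SP5, and DKK4 and NOTUM. In wild-type cells they were DKK4 and DKK3, and NOTUM and DKK1.

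**Figure D3:**
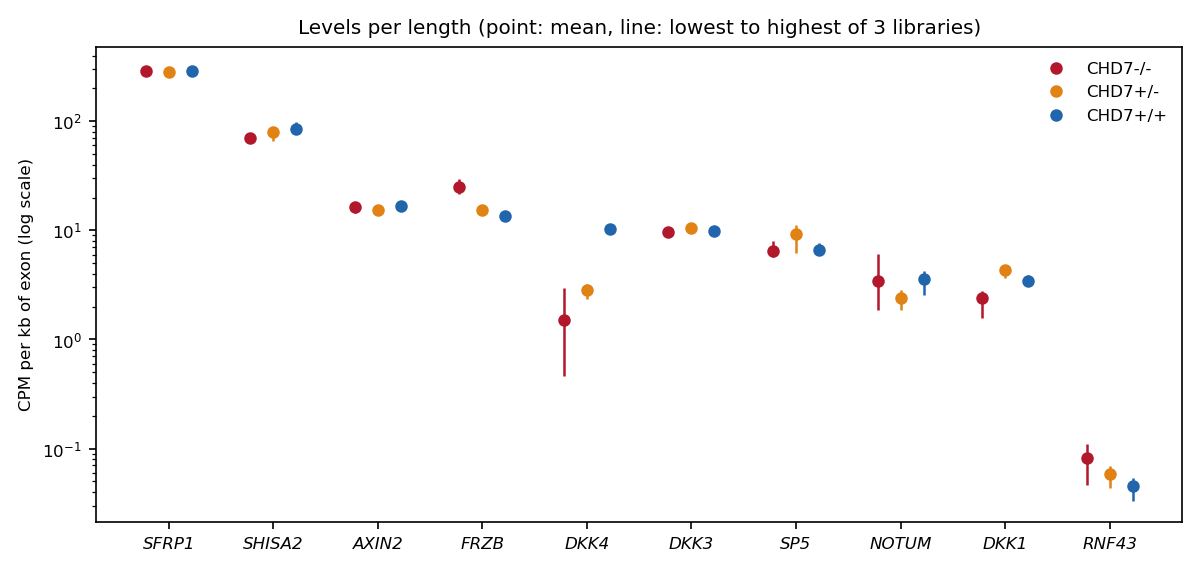
Level of the 10 genes per kilobase of exon on a log axis, ordered by their level in wild-type cells, for homozygous, heterozygous and wild-type cells from left to right within each gene. Points are means and lines run from the lowest to the highest of 3 libraries. DKK4 averaged 1.52 in homozygous, 2.84 in heterozygous and 10.2 CPM per kilobase in wild-type cells, and SFRP1 averaged 289 in homozygous, 281 in heterozygous and 288 in wild-type cells.

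DKK1, DKK4, SP5 and NOTUM varied between libraries of the same genotype, and so did POU5F1, SOX2 and NANOG, 3 of the 8 pluripotency markers. POU5F1, a core pluripotency factor, stood at 122, 114 and 33.5 CPM in homozygous, 193, 168 and 116 CPM in heterozygous and 95.3, 56.1 and 57.4 CPM in wild-type replicates. NANOG stood at 5.27, 5.96 and 1.45 CPM in homozygous, 16.6, 14.7 and 8.43 CPM in heterozygous and 12.4, 9.12 and 9.63 CPM in wild-type replicates. NANOG also differed by genotype, being lower in homozygous than in heterozygous cells (-1.65, SE 0.37, adjusted p = 0.0401). Against wild type its fall was not called (-1.30, adjusted p = 0.0547). In each genotype the library with the lowest NOTUM had the highest POU5F1. DKK1 and SP5 were both highest in heterozygous replicates 1 and 2, and both lowest in homozygous replicate 3, the libraries with the highest and the lowest POU5F1. SFRP2 and DRAXIN, secreted Wnt antagonists outside the set that were picked here after their values were seen, were likewise lowest in replicate 3 of both mutant genotypes. SFRP2 stood at 19.98, 23.9 and 3.39 CPM in homozygous, 38.9, 38.1 and 11.8 CPM in heterozygous and 16.4, 9.61 and 8.97 CPM in wild-type replicates, and DRAXIN was at 2.44 CPM in homozygous replicate 3 against 11.5 and 9.86 CPM in the other homozygous libraries. Neither was called in any comparison. AXIN2 and the listed inhibitor NKD1 went the other way, and were highest of all 9 libraries in homozygous replicate 3. In homozygous replicates 1, 2 and 3 AXIN2 stood at 86.3, 75.6 and 94.9 CPM and NKD1 at 29.1, 24.2 and 44.3 CPM. Of the other pluripotency markers, PRDM14, DPPA4 and LIN28A did not share the low level of POU5F1 in homozygous replicate 3. ZFP42 followed POU5F1 in part, being lowest of the homozygous libraries in replicate 3. It was also highest of the wild-type libraries in replicate 1 (79.1 against 64.9 and 61.6 CPM). In heterozygous replicates ZFP42 varied little (81.5, 81.8 and 83.2 CPM). In homozygous replicates 1, 2 and 3 PRDM14 stood at 19.5, 17.1 and 22.9 CPM, DPPA4 at 165, 161 and 165 CPM, LIN28A at 2013, 1969 and 2021 CPM and ZFP42 at 72.5, 72.6 and 61.9 CPM, and UTF1 was under 1 CPM in every library. The summed level of the 8 markers was 2404, 2346 and 2306 CPM in these libraries. The part of POU5F1, SOX2 and NANOG in the levels of DKK1, DKK4, SP5, NOTUM and AXIN2 was not tested.

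**Figure D4:**
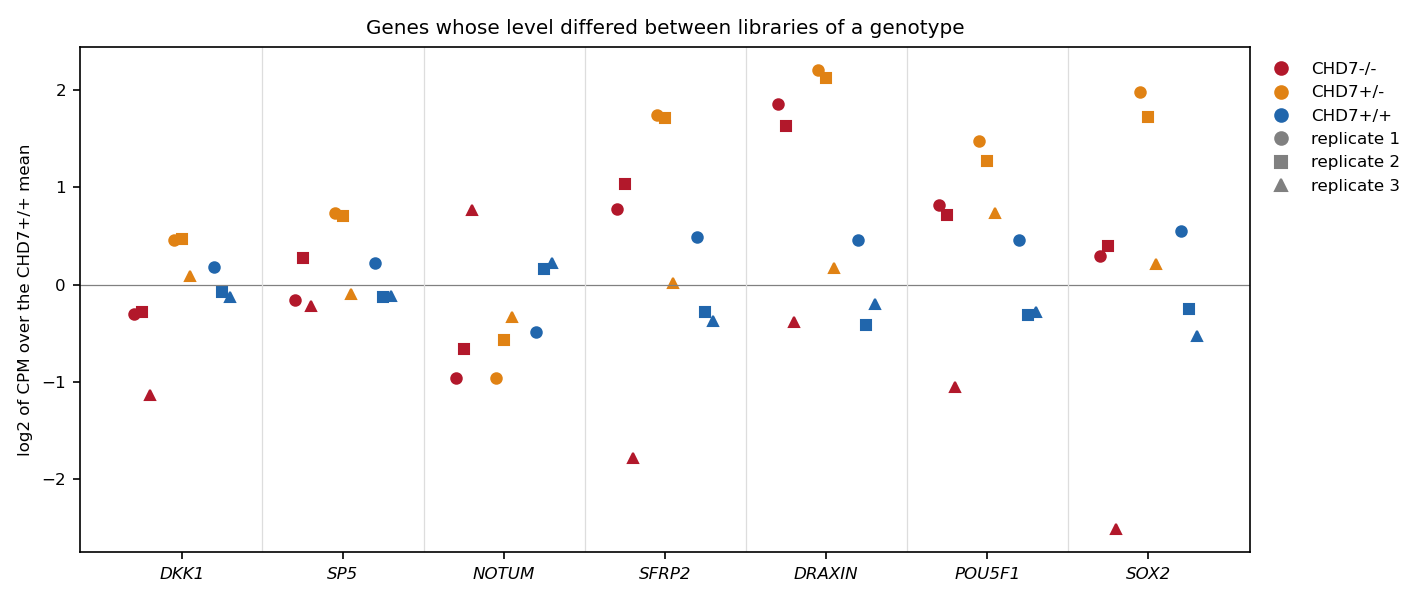
Level of DKK1, SP5 and NOTUM, of the Wnt antagonists SFRP2 and DRAXIN and of the pluripotency factors POU5F1 and SOX2 in each library, as log2 of CPM over the wild-type mean of that gene. Colours are genotypes, from left to right homozygous, heterozygous and wild type, and symbols are replicates. Homozygous replicate 3 is the lowest homozygous library for every gene shown except NOTUM, where it is the highest.

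Around the 10 genes, the rest of the Wnt pathway changed in a few places. Of 108 further pathway genes listed, 102 had a row and 85 were tested. In homozygous against wild-type cells 6 rose and 4 fell (11.8%, against 7.68% of all genes), in heterozygous against wild-type cells 3 rose and 2 fell (5.88%, against 1.86%), and between the mutants 2 were higher and 2 lower in homozygous cells (4.71%, against 2.21%). The median log2 fold change of the 85 genes was -0.02, -0.03 and 0.03. Whether these shares differ from those of all genes was not tested. Leaving out a library gave 8 to 15 called genes in homozygous against wild-type cells, the 15 without homozygous replicate 3. In heterozygous against wild-type cells it gave 1 (without wild-type replicate 2) to 7 (without homozygous replicate 3), 2 without wild-type replicate 3 or heterozygous replicate 1 or 2, and 3 without homozygous replicate 1. Between the mutants it gave 1 without heterozygous replicate 2 or 3 or homozygous replicate 1, and 2 without wild-type replicate 2 or homozygous replicate 2.

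A few of the other Wnt inhibitors rose. Of 15 tested, 3 rose and 0 fell in homozygous against wild-type cells, where 3.5% of all genes rose and 4.18% fell. In heterozygous against wild-type cells 2 rose and 0 fell, where 0.82% of all genes rose and 1.04% fell. Both counts of 0 are from edgeR, and the list itself was not tested. The median log2 fold change of the 15 genes was 0.43 in homozygous and 0.23 in heterozygous against wild-type cells, and 0.21 between the mutants. IGFBP4, an IGF-binding protein that also antagonises Wnt co-receptors, averaged 71.1 ± 9.73 CPM in homozygous, 44.1 ± 8.27 CPM in heterozygous and 31.9 ± 2.76 CPM in wild-type cells (SD, n = 3 each). Homozygous cells exceeded wild type by 1.16 on the log2 scale (SE 0.14, adjusted p = 0.000223), a call that held in 9 of the 9 fits that left out a library. Between the mutants it was higher in homozygous cells (0.69, SE 0.14, adjusted p = 0.0222), a call lost without heterozygous replicate 2 or 3 or homozygous replicate 1 or 2 (adjusted p = 0.0519 to 0.0963). SHISA6, a Shisa relative, averaged 21.4 ± 0.836 CPM in homozygous, 18.5 ± 3.24 CPM in heterozygous and 10.8 ± 0.537 CPM in wild-type cells, and rose in homozygous (0.98, SE 0.13, adjusted p = 0.000499) and heterozygous cells (0.77, SE 0.13, adjusted p = 0.00731). Leaving out wild-type replicate 2 ended the heterozygous call (adjusted p = 0.0553). SHISA3, a further Shisa relative, was highest in heterozygous cells, at 3.70 ± 0.789 CPM in homozygous, 6.68 ± 0.721 CPM in heterozygous and 2.09 ± 0.324 CPM in wild-type cells. Its rise in heterozygous cells (1.66, SE 0.20, adjusted p = 0.000452) held in 9 of 9 fits that left out a library. Its rise in homozygous cells (0.81, adjusted p = 0.0325) was lost without wild-type replicate 2 or 3, heterozygous replicate 2 or homozygous replicate 1 or 2 (adjusted p = 0.0525 to 0.141). Its lower level in homozygous than in heterozygous cells (-0.85, adjusted p = 0.0428) held without wild-type replicate 1 and was lost in the other 8 such fits (adjusted p = 0.0593 to 0.116).

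Ligands and receptors showed single changes. Of 10 ligand and secretion genes tested, WNT4, a ligand best known from kidney and gonad, was the 1 called in homozygous against wild-type cells, at 11.4 ± 1.74 CPM in homozygous, 5.63 ± 0.266 CPM in heterozygous and 5.89 ± 0.409 CPM in wild-type cells (0.95, SE 0.15, adjusted p = 0.00156). It was also higher in homozygous than in heterozygous cells (1.01, SE 0.15, adjusted p = 0.00299). WLS, the carrier that brings Wnt ligands to the cell surface, fell in heterozygous cells (-0.48, SE 0.11, adjusted p = 0.0447), a call that held without wild-type replicate 1 or homozygous replicate 2 or 3 and was lost in the other 6 fits that left out a library (adjusted p = 0.0681 to 0.281). In homozygous against wild-type cells WLS was not called (-0.33, adjusted p = 0.0941), but it was without homozygous replicate 3 (-0.40, adjusted p = 0.043) or wild-type replicate 1 (-0.44, adjusted p = 0.0246). Among 15 receptors PTK7, a co-receptor of planar polarity signalling, rose in homozygous against wild-type cells (0.46, SE 0.08, adjusted p = 0.00458) and FZD7, a Frizzled of stem cells and endoderm, fell (-0.48, SE 0.09, adjusted p = 0.00424). LGR5, an R-spondin receptor and Wnt target, averaged 8.45 ± 3.21 CPM in homozygous, 18.5 ± 4.89 CPM in heterozygous and 20.8 ± 0.741 CPM in wild-type cells. It fell in homozygous against wild-type cells (-1.28, SE 0.23, adjusted p = 0.00412) and was lower in homozygous than in heterozygous cells (-1.11, adjusted p = 0.0278), a call that ended without wild-type replicate 2, heterozygous replicate 2 or 3 or homozygous replicate 1 or 2 (adjusted p = 0.0504 to 0.091).

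Of the genes inside the cell, 0 of 17 transduction genes were called in any comparison by edgeR, DESeq2 or limma-voom. By edgeR 7.68%, 1.86% and 2.21% of all genes were called in the 3 comparisons, so 0 of 17 says little about these genes. At an unadjusted edgeR p below 0.05 there were 2 in homozygous against wild-type cells, 1 in heterozygous against wild-type cells and 0 between the mutants. The shares of all genes were 23.2%, 13.5% and 18.3% in the same order. CTNNB1, which encodes beta-catenin, stood at 670.2 ± 19.0 CPM in homozygous, 663 ± 20.8 CPM in heterozygous and 684 ± 14.0 CPM in wild-type cells. Of 14 genes of the TCF complex, the co-repressor TLE3 fell in homozygous cells (-0.28, SE 0.07, adjusted p = 0.036), a call that held without heterozygous replicate 3 and was lost in the other 8 fits that left out a library (adjusted p = 0.0502 to 0.125). Of 8 other targets, SP8, a zinc-finger relative of SP5, fell in homozygous (-1.58, SE 0.25, adjusted p = 0.00192) and heterozygous cells (-1.13, SE 0.24, adjusted p = 0.0362). The heterozygous call held without wild-type replicate 1 or homozygous replicate 2 or 3 and was lost in the other 6 such fits (adjusted p = 0.054 to 0.169). SP8 stood at 9.86, 7.71 and 17.6 CPM in homozygous, 18.5, 17.5 and 11.995 CPM in heterozygous and 29.9, 38.4 and 36.9 CPM in wild-type replicates. The mutants did not differ in SP8 beyond the threshold (-0.46, adjusted p = 0.355), but without homozygous replicate 3 they did (-0.90, adjusted p = 0.0355). The cyclin gene CCND1 rose in homozygous (0.60, SE 0.09, adjusted p = 0.00138) and heterozygous cells (0.49, SE 0.09, adjusted p = 0.0148), the heterozygous call being lost without wild-type replicate 2 or 3 or heterozygous replicate 1 or 2 (adjusted p = 0.0628 to 0.131). The members of this list that were called thus moved in both directions. Over the 8 tested the median log2 fold change was -0.46 in homozygous and -0.48 in heterozygous against wild-type cells, and 0.15 between the mutants. The list itself was not tested. Against a 1.5-fold change only IGFBP4 and SP8 of the 10 homozygous calls, SHISA3 of the 5 heterozygous calls and 0 of the 4 calls between the mutants passed.

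**Figure D5:**
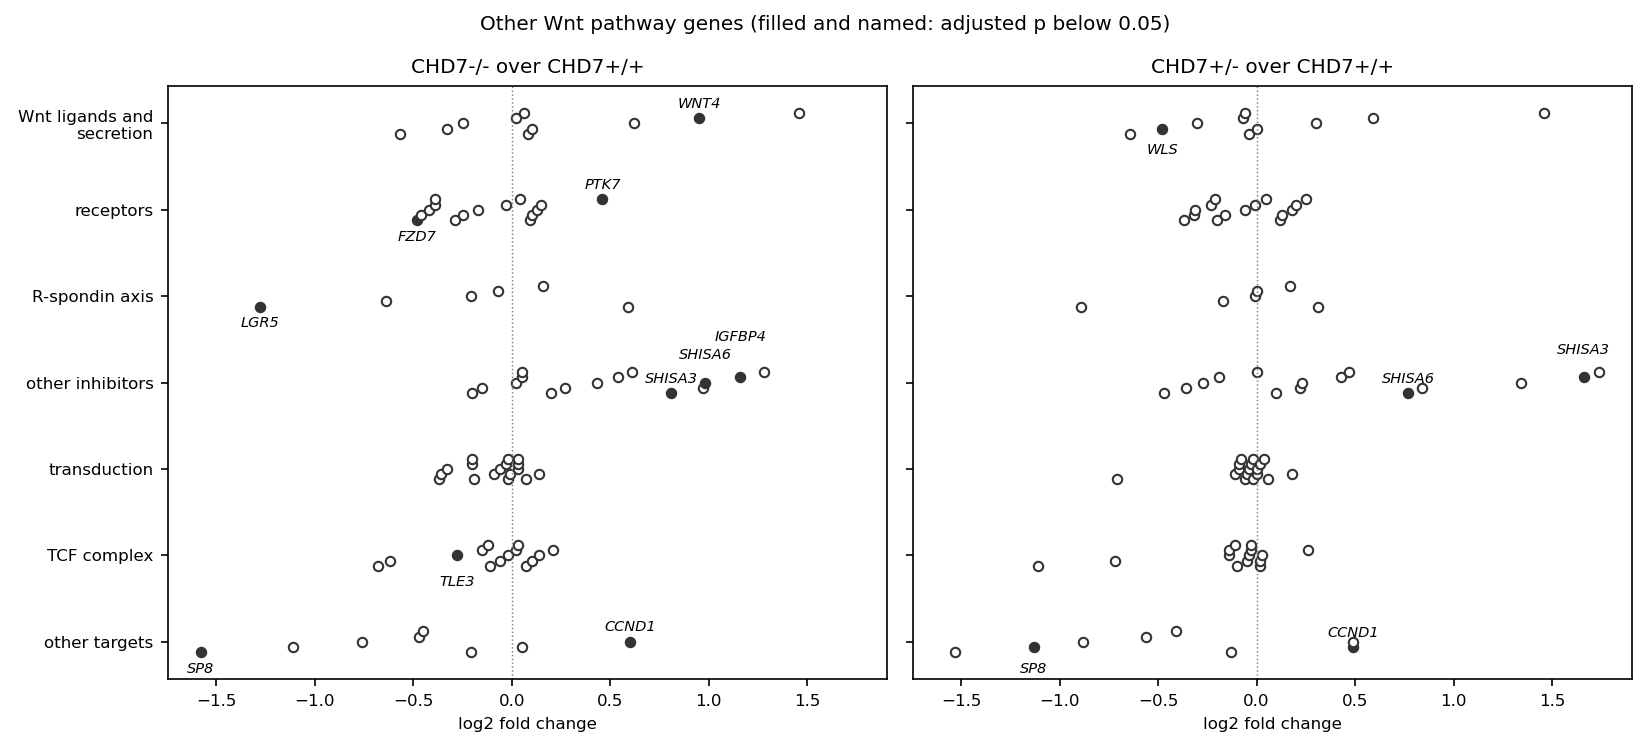
Log2 fold changes of the 85 tested further Wnt pathway genes by list, for homozygous against wild-type cells on the left and heterozygous against wild-type cells on the right. Each point is a gene, and filled, named points had an adjusted p below 0.05. The homozygous panel has 6 such genes on the positive side and 4 on the negative side, and the heterozygous panel 3 and 2.

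The genes whose levels across the 9 libraries were most like those of DKK4 were SHH, DCBLD1 and TMEM97, with Pearson correlations of log2 CPM of 0.978, 0.974 and 0.969 over 10346 genes compared. SHH, a Hedgehog ligand, averaged 8.86 ± 3.94 CPM in homozygous, 14.2 ± 1.88 CPM in heterozygous and 39.6 ± 3.06 CPM in wild-type cells (SD, n = 3 each). The genes most like FRZB were TFAP2C, NMRK1 and PDZD4, with correlations of 0.991, 0.985 and 0.978. TFAP2C stood at 19.6, 21.4 and 26.9 CPM in homozygous, 11.4, 12.3 and 12.7 CPM in heterozygous and 8.07, 10.46 and 10.6 CPM in wild-type replicates, and like FRZB it was highest in homozygous replicate 3. The libraries share genotypes and each gene was picked as the closest of many, so these correlations are descriptions.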

How the data were processed

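Per the labels, total RNA of H9-derived definitive endoderm was sequenced on an Illumina instrument. The authors deposited 1 table of raw counts, with Ensembl genes in rows and a column for each library. Per the submitters' processing notes the tools were HTSeq, SAMtools, HISAT2, Trimmomatic and FastQC, with hg38 as the build (no versions or roles). Neither the annotation release nor the strand setting is stated there, so sense and antisense reads cannot be told apart. Totals ran from 11854173 to 37519729, and homozygous replicate 1 was the shallowest.

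In R 4.3.3 with edgeR 4.0.16, filterByExpr kept 16837 genes, TMM factors (0.973 to 1.01) were applied, and 1 quasi-likelihood fit by genotype covered all 9 libraries. Tests were two-sided with Benjamini-Hochberg adjustment over all genes tested. CPM uses TMM-adjusted library sizes, the SE is the fold change over the square root of F, and exon lengths and coordinates come from GENCODE 29 on GRCh38. DESeq2 1.42.0 and limma 3.58.1 served as alternatives, which for the further pathway genes were added after their values were seen. The fit was also run on counts simulated from its own estimates of spread. These held no clone effects and no odd libraries, so that run says nothing about either.

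Chi-square values between libraries of 1 genotype were 2.71 to 34.7 per degree of freedom, so each counted as 1 sample. All 10 members are named, further pathway genes are named where called, and likeness used genes of at least 5 CPM on average with a prior count of 2. Some genes are not reported here, and the lists leave them out. The members and lists were chosen with earlier results of these data known.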

Additional observations from a re-analysis of the deposited data

How the results depend on the processing

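Alternatives were other scalings and filters, DESeq2, limma-voom, a test against a 1.5-fold change, a fit of the 6 libraries compared, the replicate number as a block and leaving out each library. The fall of DKK4 in homozygous cells was called in all 18 and the rise of FRZB in 17. Genes called in homozygous and in heterozygous cells, each against wild type, and between the mutants numbered 1293, 313 and 372, and 281, 89 and 67 against a 1.5-fold change. In heterozygous against wild-type cells and between the mutants DESeq2 called 574 and 849 and the 6-library fit 604 and 177. Leaving out a library gave 651 to 2118, 130 to 624 and 141 to 377. The highest counts came without homozygous replicate 3 and the lowest without wild-type replicate 2, wild-type replicate 3 and heterozygous replicate 2.

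Members called numbered 2, 1 and 1, and 1, 0 and 0 against a 1.5-fold change. Between the mutants 2 were called with no filter, DESeq2, limma-voom and the replicate block. Leaving out a library gave 0 to 2 in heterozygous against wild-type cells and 1 to 2 between the mutants. Uncalled members crossed 0 in homozygous against wild-type cells, namely DKK3 (0.019), AXIN2 (0.01) and SP5 (0.035) with upper quartile scaling, SP5 (0.013) with the 1 CPM filter and SFRP1 (-0.006) with no filter. Leaving out a library gave -0.079 to 0.013 for DKK3, -0.032 to 0.055 for SFRP1, -0.77 to 0.21 for NOTUM, -0.11 to 0.052 for AXIN2 and -0.2 to 0.11 for SP5, and -0.17 to 0.81 for NOTUM between the mutants. The cause was not tested. RNF43 has no value under the 1 CPM filter. Same-numbered libraries correlated at -0.19 to 0.24, and homozygous replicate 2 correlated best with heterozygous replicate 1 (0.36), so the numbers were not taken to pair them. With the replicate block 1503, 492 and 461 genes were called, DKK1 passed between the mutants (adjusted p = 0.014) and TLE3 in homozygous against wild-type cells did not (0.0618). Depth limits RNF43 and homozygous DKK4 most.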
